A study of Mus musculus with 6 samples.

Results

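Luminal progenitor genes were examined in mouse mammary cells that had been sorted as basal. The set held 10 genes taken by symbol (Kit, Elf5, Aldh1a3, Cd14, Ehf, Lbp, Lcn2, Ltf, Folr1 and Plet1), and all 10 had a row of their own among the 22180 genes measured. The wild type group was 3 arrays and the knockout group was 3 arrays of mice with the genotype Trp53-/-, p16ink4a-/- and p19arf-/-, which lack the tumour suppressor p53 and both products of Cdkn2a. All cells came from virgin females of 8 to 14 weeks. The labels call the arrays biological replicates, name no driver or conditional allele, and do not say how many mice went into an array. Glands were dissociated enzymatically, depleted of blood and endothelial cells with beads, and stained for sorting with antibodies that included CD49f, CD24 and CD14. CD14 is the product of one of the 10 genes, and whether the basal gate used that stain is not given in the sources used here.

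The mammary duct has an outer basal layer of contractile myoepithelial cells and an inner luminal layer. Luminal cells divide into hormone-sensing cells and progenitors. The progenitors are often recognised by the receptor Kit, the surface protein CD14 and the enzyme Aldh1a3, and give rise to the milk-secreting alveolar cells under the transcription factor Elf5. Luminal progenitors are also known for secreting antimicrobial and acute phase proteins such as lactotransferrin (Ltf) and lipocalin 2 (Lcn2). A basal sort is meant to leave these cells out.

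The values are log2 expression values, which the authors made with RMA, and they are given below in the order of replicates 1, 2 and 3. The table ran from 1.98 to 13.9, so no gene was at 0, and array medians lay between 5.73 and 5.81. Between arrays the Pearson correlation over genes was 0.971 to 0.988. Cdkn2a read 6.42, 5.84 and 6.48 in wild type and 6.25, 6.31 and 6.39 in knockout cells. The position of its probes relative to the deletion is not given in the sources used here, so Cdkn2a is no check of the labels, and Trp53 itself was not analysed here. The basal keratin Krt14 lay between 13.2 and 13.5 on all 6 arrays and smooth muscle actin Acta2 between 12.3 and 12.6 on the same arrays. The luminal keratins Krt8, at 11.01 to 11.86, and Krt18, at 10.61 to 12.16, also gave signal in this sort.

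No luminal progenitor gene differed between the genotypes beyond the spread of the arrays. With limma 0 of the 10 genes passed an adjusted p of 0.05, against 0% of all genes. Before adjustment 0 of the 10 were higher and 0 lower at a p of 0.05, against 1.61% and 1.71% of all genes, or 3.32% in either direction. For 0 of the 10 genes did the knockout arrays lie all above or all below the wild type arrays, a pattern that 7.68% of all genes had. In the fit, 2 genes had a higher mean in the knockout and 8 a lower one, with a median log2 fold change, always given as knockout minus wild type, of -0.03. Over all genes 48.3% were higher and 51.7% lower, with a median of -0.01. The fold change of 5 of the 10 genes was smaller than 0.1 in either direction, which held for 45.5% of all genes. The median range of the 10 genes over the 6 arrays was 0.83, and 20.6% of all genes had a range above that. This range includes any genotype difference and cannot be smaller than it, so it is no measure of spread within a genotype.

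**Figure D1:**
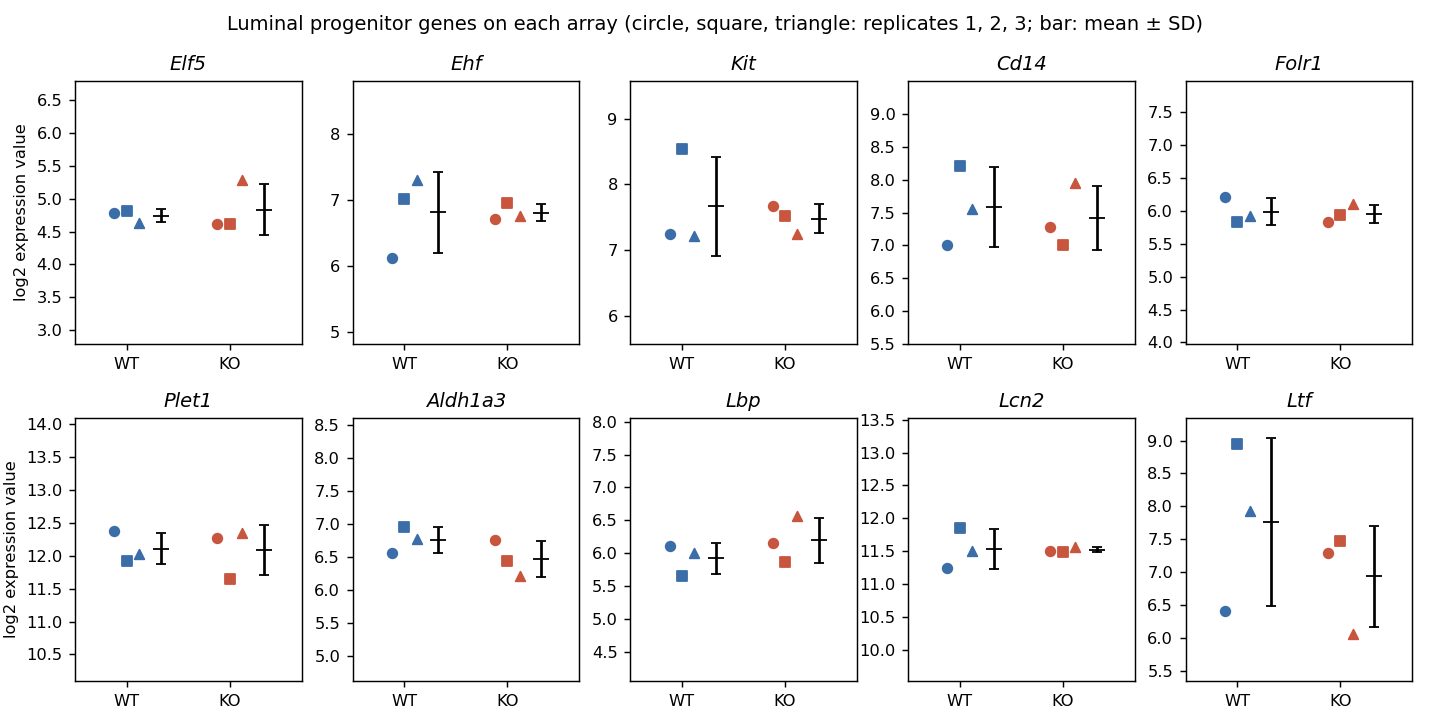
The log2 expression value of each of the 10 luminal progenitor genes on every array, with wild type (WT) in blue, knockout (KO) in red, one symbol per replicate number and the mean ± SD (n = 3) beside the points. Every vertical axis spans the same log2 distance. The groups overlap in every panel, and Ltf and Kit show wild type replicate 2 high above the other arrays.

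For 5 of the 10 genes RefSeq gave a promoter sequence (build GRCm38.p6). Shown here are the 250 bases before the transcription start of 3 of them, Kit, Lcn2 and Ltf, because these read highest on the same array, wild type replicate 2. Kit has 2 listed starts, of which the first is shown. The windows are chr5:75574737-75574986 on the + strand, chr2:32387740-32387989 on the - strand and chr9:111019042-111019291 on the + strand, each written 5′ to 3′ along the gene. Capitals mark GGAA, the core of sites bound by ETS factors, the family of Elf5 and Ehf, on either strand (TTCC is the same core on the other strand).
Kit: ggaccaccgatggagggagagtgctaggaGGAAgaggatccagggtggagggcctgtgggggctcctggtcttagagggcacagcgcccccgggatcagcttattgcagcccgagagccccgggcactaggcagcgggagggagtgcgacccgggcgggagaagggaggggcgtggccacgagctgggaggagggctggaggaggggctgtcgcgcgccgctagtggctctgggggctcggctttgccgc
Lcn2: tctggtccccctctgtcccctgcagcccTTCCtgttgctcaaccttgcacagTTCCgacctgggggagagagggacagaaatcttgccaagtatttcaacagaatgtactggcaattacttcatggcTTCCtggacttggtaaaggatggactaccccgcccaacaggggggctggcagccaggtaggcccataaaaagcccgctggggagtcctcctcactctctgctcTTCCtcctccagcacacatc
Ltf: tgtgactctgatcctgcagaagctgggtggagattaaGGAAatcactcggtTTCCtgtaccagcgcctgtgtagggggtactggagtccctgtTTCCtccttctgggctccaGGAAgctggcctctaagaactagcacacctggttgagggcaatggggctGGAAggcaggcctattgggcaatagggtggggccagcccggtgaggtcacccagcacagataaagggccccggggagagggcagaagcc

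The core occurred 5 times before Ltf, 4 times before Lcn2 and 1 time before Kit. Elf5 and Plet1, which did not read highest on that array, had it 2 times each (for Elf5 at the first of its 2 listed starts). GGAA is short and stands in 93.4% of all 32851 windows of this length, so its presence marks none of these promoters out. The letters TTCNNNGAA (the STAT site, in 7.02% of windows), which read the same on both strands, were in 0 of the 7 windows of these genes. The letters TATAAA, a core promoter element in 12.4% of windows, were searched on both strands and were in 1 window, that of Plet1, beginning at position -30 from the start. These searches describe letters in a window and not binding.

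The transcription factors Elf5 and Ehf did not pass the test, with group means less than 0.1 apart. They are neighbours among the protein-coding genes of chromosome 2. Elf5, which directs progenitors toward the alveolar fate, read 4.79, 4.81 and 4.63 in wild type and 4.61, 4.61 and 5.28 in knockout cells. Knockout replicate 3 stood above the other 5 arrays, which lay close together. Elf5 was 4.74 ± 0.099 (SD, n = 3) in wild type and 4.83 ± 0.385 in knockout cells. The difference was 0.09 (SE 0.193, limma adjusted p = 1.0). That sign turned to -0.13 without knockout replicate 3.

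Ehf, an ETS factor of epithelia, read 6.12, 7.01 and 7.31 in wild type and 6.71, 6.95 and 6.75 in knockout cells. The 3 knockout arrays lay inside the wild type range, and wild type replicate 1 was the lowest array. Ehf had a log2 fold change of -0.01 (SE 0.284), with a 95% interval from -0.65 to 0.64. Although the genes adjoin, Elf5 was highest on knockout replicate 3 and Ehf on wild type replicate 3. Of 9 other ETS genes expressed in epithelia or widely, 4 had a higher and 5 a lower mean in the knockout, with a median of -0.08, and 0 passed. Spdef had a log2 fold change of -0.27, Elf2 of 0.38 and Etv5 of 0.27.

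Of the surface proteins, Kit and Cd14 varied most among the wild type arrays, and neither passed the test. Kit, the receptor for stem cell factor, read 7.24, 8.53 and 7.22 in wild type and 7.67, 7.52 and 7.24 in knockout cells. A single array, wild type replicate 2, was high, and the other 5 spanned less than 0.5. Kit was 7.66 ± 0.754 (SD, n = 3) in wild type and 7.48 ± 0.219 in knockout cells, which gave a log2 fold change of -0.19 (SE 0.338, limma adjusted p = 1.0). Without wild type replicate 2 that value was 0.25, of the other sign. Its ligand gene Kitl read 9.83, 9.29 and 9.19 in wild type and 9.89, 9.80 and 9.77 in knockout cells, with a log2 fold change of 0.38 that did not pass (adjusted p = 1.0). Of 9 genes of Kit ligand and signalling 6 had a higher and 3 a lower mean in the knockout, with a median of 0.04. Those of smallest p after Kitl were Pik3r1, a regulatory subunit of phosphoinositide 3-kinase, at 0.30 and the ubiquitin ligase Cbl at -0.14.

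Cd14, a co-receptor for bacterial lipopolysaccharide, read 7.00, 8.21 and 7.55 in wild type and 7.28, 7.00 and 7.95 in knockout cells. The highest array was again wild type replicate 2, and knockout replicate 3 came next. For Cd14 the log2 fold change was -0.18 (SE 0.335), with a 95% interval from -0.93 to 0.58. It was 0.14 without wild type replicate 2. Tlr4, which signals with Cd14, read 5.02, 5.26 and 5.19 in wild type and 5.30, 5.28 and 5.64 in knockout cells, so that its groups did not overlap, as in 3.63% of all genes for that direction. Its log2 fold change of 0.25 did not pass (adjusted p = 1.0). The Tlr4 partner Ly96 had a log2 fold change of -0.11, Tlr2 of 0.51 and the adaptor Ticam2 of -0.22. Of 9 genes of lipopolysaccharide recognition 4 had a higher and 5 a lower mean, with a median of -0.05, and 0 passed.

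Folr1 and Plet1 gave the flattest readings among the surface proteins. Folr1, the folate receptor alpha, read 6.22, 5.83 and 5.92 in wild type and 5.83, 5.94 and 6.10 in knockout cells. Its range over all arrays, 0.388, was the smallest of the 10 genes. For Folr1 the log2 fold change was -0.03 (95% interval from -0.40 to 0.34). All 6 folate transport and one-carbon genes measured beside it had a lower mean in the knockout, as had 51.7% of all genes, with a median of -0.18, and 0 passed. All 6 also read highest on wild type replicate 2, as did 23.5% of all genes. Their mean on wild type replicate 1, 6.51, lay below the knockout arrays, at 6.80, 6.86 and 6.53. Folr2, a neighbouring gene and folate receptor, had a log2 fold change of -0.26, the folate transporter Slc46a1 of -0.24 and Shmt2, a mitochondrial one-carbon enzyme, of -0.22.

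Plet1, a surface glycoprotein of epithelial progenitors, read 12.38, 11.91 and 12.03 in wild type and 12.27, 11.65 and 12.34 in knockout cells. In both genotypes replicate 2 was lowest, the opposite of Kit and Cd14 in wild type cells. The log2 fold change was -0.02 (SE 0.196). A second row of the table is annotated to both Plet1 and Plet1os, its opposite-strand transcript, and was not used for Plet1. That row read 5.88, 5.51 and 5.61 in wild type and 5.42, 4.93 and 5.41 in knockout cells, with all knockout arrays below all wild type arrays, as in 4.07% of all 41345 rows. Its log2 fold change of -0.41 (SE 0.194) did not pass (limma adjusted p = 1.0 over all rows, unadjusted p = 0.0715). It was named after its values were seen, and the strand its probes read is not given in the sources used here.

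**Figure D2:**
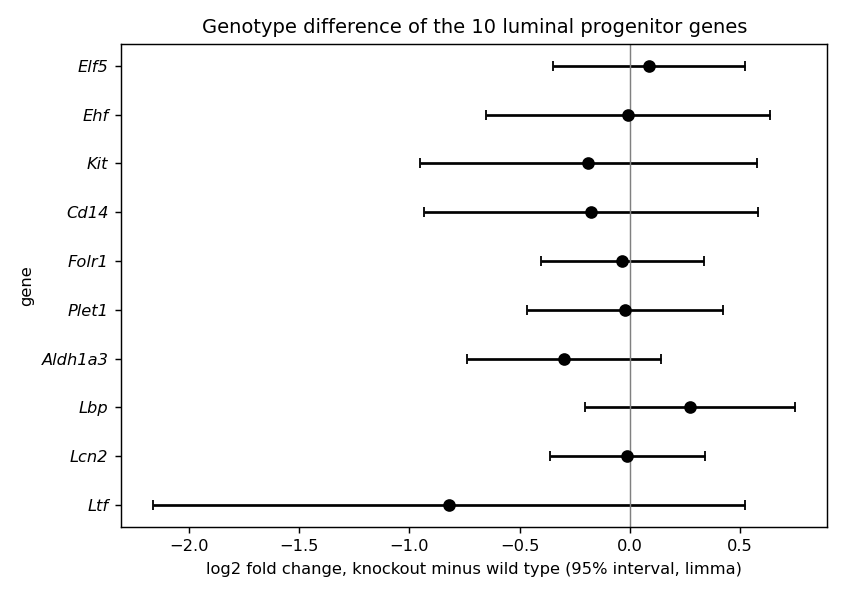
The log2 fold change (knockout minus wild type) of the 10 luminal progenitor genes with its 95% interval from limma. Every interval includes 0, and the interval of Ltf, from -2.16 to 0.52, is the widest.

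Aldh1a3, which makes retinoic acid from retinaldehyde, had the smallest p of the 10 genes without passing. It read 6.57, 6.96 and 6.77 in wild type and 6.76, 6.44 and 6.21 in knockout cells. Knockout replicates 2 and 3 lay below every wild type array and knockout replicate 1 within the wild type range. Aldh1a3 was 6.77 ± 0.198 (SD, n = 3) in wild type and 6.47 ± 0.277 in knockout cells, 1.23-fold higher in wild type. The log2 fold change came to -0.30 (SE 0.194, limma adjusted p = 1.0, unadjusted p = 0.159). Same-numbered arrays differed by 0.19, -0.52 and -0.57. Of 10 other retinoic acid genes 5 had a higher and 5 a lower mean, with a median of -0.02. Crabp1, a retinoic acid binding protein, had a log2 fold change of 0.47, Rdh10, which forms retinaldehyde, of 0.31 and Dhrs3, which reduces it back, of -0.51, and 0 of the list passed.

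Among the secreted defence proteins, Ltf varied most of the 10 genes and Lcn2 hardly varied in the knockout. Ltf, the iron-binding lactotransferrin, read 6.40, 8.94 and 7.92 in wild type and 7.29, 7.47 and 6.06 in knockout cells. The wild type arrays alone spanned 2.54, and the knockout arrays 1.41. Ltf was 7.76 ± 1.28 (SD, n = 3) in wild type and 6.94 ± 0.765 in knockout cells, 1.76-fold higher in wild type on average. The log2 fold change came to -0.82 (SE 0.593, limma adjusted p = 1.0, unadjusted p = 0.201). The value was -0.23 without wild type replicate 2 and -1.50 without wild type replicate 1. Same-numbered arrays differed by 0.88, -1.48 and -1.86.

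Lcn2, which binds bacterial iron carriers, read 11.25, 11.85 and 11.50 in wild type and 11.51, 11.49 and 11.57 in knockout cells. The knockout arrays spanned 0.0753 and lay within the wild type range of 0.606. Its genotype difference, the log2 fold change, was -0.01 (SE 0.155), with a 95% interval from -0.36 to 0.34, the narrowest of the 10.

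Lbp, the plasma protein that hands lipopolysaccharide to Cd14, was the only one of the 3 with a higher mean in the knockout. It read 6.11, 5.66 and 6.002 in wild type and 6.16, 5.87 and 6.56 in knockout cells. Knockout replicate 3 was the highest array, and wild type replicate 2 the lowest. Its log2 fold change was 0.27 (SE 0.211, limma adjusted p = 1.0, unadjusted p = 0.225), and 0.09 without knockout replicate 3. Same-numbered arrays differed by 0.06, 0.21 and 0.56. Of 8 other acute phase and defence genes 6 had a higher and 2 a lower mean, with a median of 0.20, and 0 passed. Saa2, serum amyloid A2, read 5.33, 6.19 and 4.96 in wild type and 4.12, 6.31 and 10.26 in knockout cells, so knockout replicate 3 stood far above the others. Without Saa2 the mean of the other 7 was 5.598, 5.63 and 5.68 in wild type and 5.92, 5.67 and 5.82 in knockout cells, highest on knockout replicate 1. The log2 fold change was 0.50 for Lrg1, a secreted glycoprotein, and 0.28 for the peroxidase Lpo.

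Ltf and the mean of general luminal markers had the same order of arrays. So did the mean of 12 hormone-sensing luminal genes, at 6.41, 7.55 and 7.29 in wild type and 6.42, 6.95 and 6.295 in knockout cells. Relations of the 10 genes with that hormone-sensing mean were not computed. The mean of 14 general luminal genes, none of them among the 10, was 7.92, 8.99 and 8.70 in wild type and 8.28, 8.43 and 7.88 in knockout cells. Over the 6 arrays Ltf correlated with it with a Pearson r of 0.989 (exact permutation p = 0.00139, adjusted p = 0.0278) and a Spearman rho of 1.0 (exact permutation p = 0.00278, adjusted p = 0.0556). The r was 0.991 without wild type replicate 2 and knockout replicate 3, the arrays farthest from the median of the luminal mean. Relations of the 10 genes with this mean and with the mean of milk genes were computed, 20 in all, after the values had been seen, and the p-values are adjusted over these 20. Each genotype has 3 arrays, too few for a correlation of its own, but the order of the arrays was the same for Ltf and the luminal mean within each. The p-values above permute all 6 arrays and so do not separate genotype from array. With arrays permuted only within genotype, a test added after seeing the data, there are 36 orders and the smallest p they can give is 0.0278. Ltf and Lbp had that p with the luminal mean, each with an adjusted p of 0.208 over the 20 relations in this exact test. Then 0 of the 20 passed. A single relation at the smallest p would have an adjusted p of 0.556, so this test could hardly pass any relation and decides nothing. With the luminal mean as a covariate the log2 fold change of Ltf was -0.03 (SE 0.190). That value follows from the correlation over the same arrays and is no separate evidence. The covariate also carries genotype, since 13 of its 14 genes had a lower mean in the knockout. The part of luminal content in the Ltf values was not tested. In sorted bulk cells, fewer luminal cells and less luminal RNA per cell cannot be told apart.

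No other relation of the 20 passed after adjustment with all arrays permuted. Lbp ran against the luminal mean, with a Pearson r of -0.836 (exact permutation p = 0.0361, adjusted p = 0.226) and a rho of -0.886 (exact permutation p = 0.0333, adjusted p = 0.292), and its r was -0.515 without the same arrays. Aldh1a3 had an r of 0.790 (exact permutation p = 0.0639, adjusted p = 0.226) and a rho of 0.829 (exact permutation p = 0.0583, adjusted p = 0.292), which came down to an r of 0.339 without them. Kit had an r of 0.702 (exact permutation p = 0.104, adjusted p = 0.260) and a rho of 0.371 (exact permutation p = 0.497, adjusted p = 0.710), and an r of -0.018 without them. An r over so few arrays is too imprecise to say which of them a relation rests on.

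Ehf had an r of 0.746 with the luminal mean (exact permutation p = 0.0792, adjusted p = 0.226) and a rho of 0.771 (exact permutation p = 0.103, adjusted p = 0.294), and an r of 0.999 over the 4 arrays left. Lcn2 had an r of 0.707 (exact permutation p = 0.122, adjusted p = 0.272) and a rho of 0.257 (exact permutation p = 0.658, adjusted p = 0.775), and an r of 0.847 over these 4. For Folr1 the r was -0.790 (exact permutation p = 0.0694, adjusted p = 0.226), the rho -0.60 (exact permutation p = 0.242, adjusted p = 0.439) and the r over the 4 arrays -0.701. For Plet1 the r was -0.687 (exact permutation p = 0.138, adjusted p = 0.275), the rho -0.771 (exact permutation p = 0.103, adjusted p = 0.294) and the r over the 4 arrays -0.615. Cd14 had an r of 0.411 (exact permutation p = 0.393, adjusted p = 0.524) and Elf5 of -0.489 (exact permutation p = 0.350, adjusted p = 0.50), with rho of 0.371 and -0.257, and 0.725 and -0.792 over the 4 arrays.

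**Figure D3:**
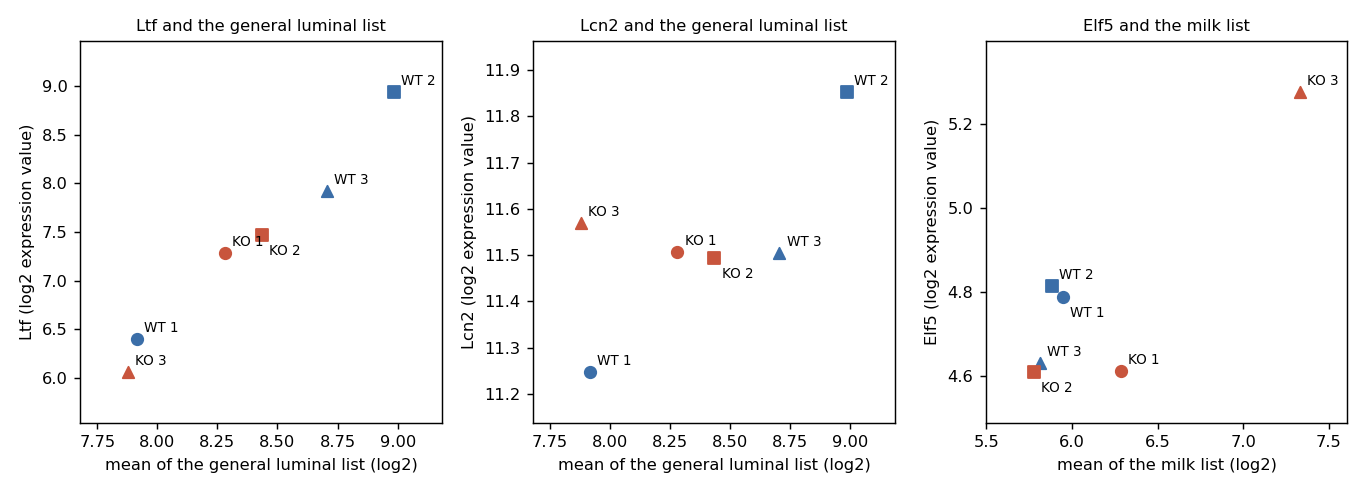
Ltf and Lcn2 against the mean of 14 general luminal genes, and Elf5 against the mean of 10 milk genes, all as log2 values with a point per array (wild type blue, knockout red). Ltf has an r of 0.989 with the luminal mean and Lcn2, which lies between 11.25 and 11.85, an r of 0.707, and in the milk panel knockout replicate 3 lies apart at a milk mean of 7.33.

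Knockout replicate 3 read highest for Elf5 and Lbp and also for 5 of 10 milk genes, namely 4 caseins and Lalba. Of the other 5, Wap, a whey protein, was lowest there. The mean of 10 milk genes was 5.95, 5.88 and 5.81 in wild type and 6.29, 5.78 and 7.33 in knockout cells. The caseins Csn2 and Csn1s1 stood out most on knockout replicate 3. Csn2 read 8.03 there and 2.86 to 3.95 on the other arrays, and Csn1s1 6.83 against 2.71 to 3.18. Those other values were in the low part of the table, whose lowest value was 1.98. The milk mean without these 2 caseins was not computed. Csn3, kappa casein, read 9.10 on knockout replicate 3 and 7.52 to 8.47 on the other arrays, and Csn1s2a, another casein, 6.71 against 4.75 to 5.27. Lalba, the milk protein alpha-lactalbumin, read 9.69 there, but also 9.47 on knockout replicate 1. Of the 10 milk genes 7 had a higher and 3 a lower mean in the knockout, with a median log2 fold change of 0.44, and 0 passed. The log2 difference was 0.84 for Csn3, 1.94 for Lalba and 0.67 for Csn1s2a. Csn3 and Lalba, 2 of the 10, were higher at an unadjusted limma p under 0.05, as were 1.61% of all genes, and only Csn3 of the 10 was higher without overlap of the groups, as were 3.63%. Elf5 had a Pearson r of 0.874 with the milk mean (exact permutation p = 0.0778, adjusted p = 0.226) and a rho of 0.60 (exact permutation p = 0.242, adjusted p = 0.439). Without knockout replicates 1 and 3, the farthest from the median, the r was 0.887 over 4 arrays whose Elf5 values spanned 4.61 to 4.81. Lbp had an r of 0.874 (exact permutation p = 0.0181, adjusted p = 0.181) and a rho of 0.829 (exact permutation p = 0.0583, adjusted p = 0.292) with the milk mean, and an r of 0.246 without those arrays. Ltf, by contrast, was lowest on knockout replicate 3.

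The 10 genes did not share a highest array. Of them 5, Kit, Aldh1a3, Cd14, Lcn2 and Ltf, read highest on wild type replicate 2, which was the highest array for 23.5% of all genes. Folr1 and Plet1 were highest on wild type replicate 1, Ehf on wild type replicate 3, and Elf5 and Lbp on knockout replicate 3. Knockout replicates 1 and 2 were highest for 0 of the genes. The wild type range exceeded the knockout range for 6 of the 10, against 61.4% of all genes. The mean of the 10 genes was 7.41, 7.97 and 7.69 in wild type and 7.61, 7.49 and 7.61 in knockout cells, with all knockout arrays inside the wild type range. Outside the set, the array profiles nearest to the mean profile of the 10 belonged to Rbm28, Coq2, Macroh2a1, Spire1 and Pced1b, with root mean square differences of 0.020 to 0.042 in log2 units over 6 arrays.

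**Figure D4:**
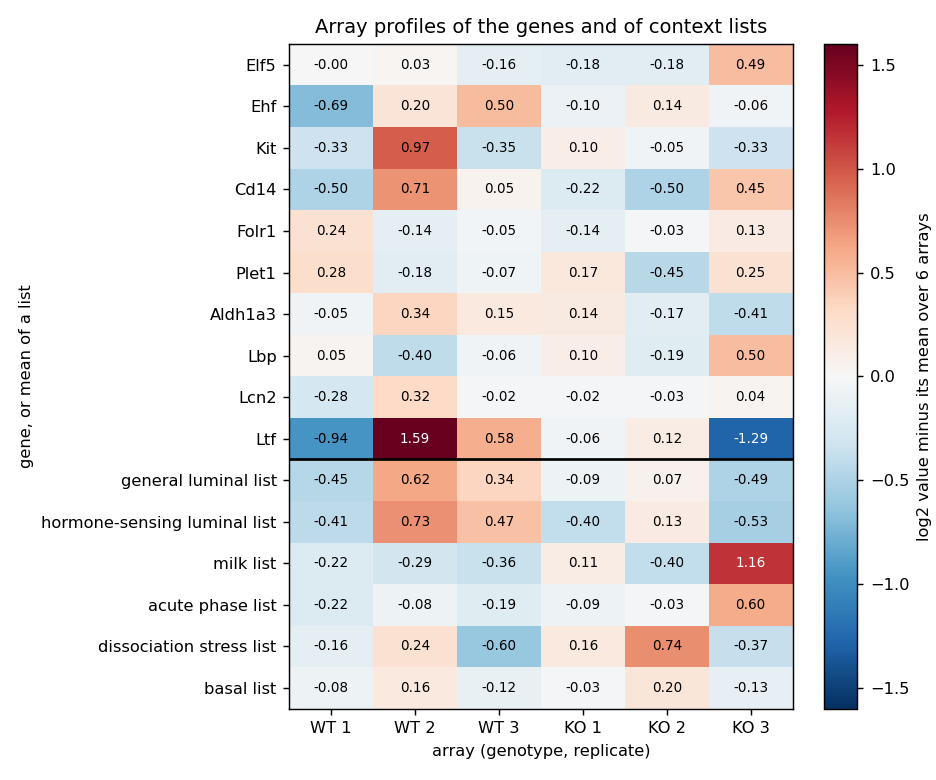
The 10 luminal progenitor genes and, below the line, the means of 6 context lists on each array, as log2 values minus the mean over the 6 arrays (red above, blue below). Ltf, the general luminal list and the hormone-sensing luminal list share their order of arrays. Knockout replicate 3 is high for Elf5, Lbp, the milk list and the acute phase list, whose mean without Saa2 is 5.82 there and 5.92 on knockout replicate 1.

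Other luminal progenitor genes, listed from general knowledge and not among the 10, were counted beside them. Of 11 measured, 2 had a higher and 9 a lower mean in the knockout, with a median log2 fold change of -0.13, and 0 passed. Gabrp, a GABA receptor subunit of luminal progenitors, read 5.96, 6.44 and 6.56 in wild type and 5.93, 5.56 and 5.49 in knockout cells. Its groups did not overlap, as in 4.05% of all genes for that direction, and its log2 fold change of -0.66 (SE 0.203) did not pass (limma adjusted p = 1.0, unadjusted p = 0.0101). Lypd3, a GPI-anchored surface protein, had a log2 fold change of -0.33 and Cyp24a1, the vitamin D hydroxylase, of -0.23.

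The 2 luminal marker lists had lower means in the knockout for most genes, as had 51.7% of all genes, but their list means overlapped between the genotypes. Wild type replicate 2 was the highest array for 12 of the 14 general and 10 of the 12 hormone-sensing genes, against 23.5% of all genes. On wild type replicate 1 the list means were 7.92 and 6.41. Both lay below those on knockout replicate 1, 8.28 and 6.42, and on knockout replicate 2, 8.43 and 6.95. Of 14 general luminal genes 1 was higher and 13 lower, with a median of -0.37. Anxa3 had a log2 fold change of -0.48, Grhl2, an epithelial transcription factor, of 0.41 and Krt18 of -0.61. Of 12 hormone-sensing luminal genes 2 were higher and 10 lower, with a median of -0.48, among them Fgg at -1.25, Stc2 at -0.62 and Sytl2 at -0.85. The median of the 10 luminal progenitor genes, -0.03, lay closer to that of all genes than either. Their mean log2 fold change was -0.12, however, and their median was -0.255 without wild type replicate 1. The 11 other luminal progenitor genes had a median of -0.13. No gene of these lists passed. Of 14 basal genes 5 were higher and 9 lower, with a median of -0.03, and Igfbp5 at 0.20, Trp63 at 0.35 and Myh11 at 0.23 had the smallest p.

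Markers of blood cells were checked because neutrophils and monocytes are known to make Ltf, Lcn2 and Cd14 and mast cells Kit. The mean of 10 neutrophil genes lay between 4.49 and 4.72 on the wild type arrays and between 4.57 and 4.74 on the knockout arrays. S100a8 read 4.30, 4.01 and 3.69 in wild type and 4.32, 4.07 and 5.04 in knockout cells, and S100a9 4.75, 5.03 and 4.86 against 4.55, 4.16 and 4.46. By array the neutrophil mean was 4.72, 4.53 and 4.49 in wild type and 4.74, 4.57 and 4.64 in knockout cells. The mean of 10 monocyte and macrophage genes lay between 5.22 and 5.39 in wild type and between 5.23 and 5.53 in knockout cells, and the pan-leukocyte gene Ptprc read 3.28 to 3.75 over all arrays. The mean of 6 mast cell genes was 3.70 to 3.84 and 3.73 to 3.79, and Cpa3, mast cell carboxypeptidase, read 2.94 to 3.32. Of these lists 8 of 10, 7 of 10 and 3 of 6 genes had a higher mean in the knockout, with medians of 0.09, 0.04 and -0.01, and 0 passed. The log2 fold change was 0.47 for S100a8, -0.49 for S100a9 and -0.25 for Retnlg, a neutrophil gene, and the groups of the last 2 did not overlap, as for 4.05% of all genes in that direction. Among monocyte and macrophage genes it was 0.36 for the lysosomal protein Cd68, 0.45 for the lysozyme Lyz2 and 0.23 for Ptprc. Among mast cell genes, the proteases Mcpt4, Cma1 and Tpsb2 had values of 0.22, -0.23 and -0.09. Cd68 and Mcpt4 were higher without overlap, as were 3.63% of all genes, and Mcpt4 read low, at 2.96 to 3.26 over all arrays. The part of blood cells in the values of the 10 genes was not tested.

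Markers of stroma and of handling also differed between arrays. The 6 fibroblast genes all had a higher mean in the knockout, with a median log2 fold change of 0.34 and list means of 6.44 to 6.84 in wild type and 7.03 to 7.24 in knockout cells. These list means did not overlap, a pattern whose share over other lists was not computed. By gene only 1 of the 6, Lum, was higher without overlap, as were 3.63% of all genes. Lum, a collagen-binding proteoglycan, had a log2 fold change of 1.28, Dcn, another, of 0.54 and Pdgfra, a fibroblast receptor, of 0.85. The collagen genes Col1a1, Col1a2 and Col3a1 had smaller values of 0.13, 0.06 and 0.14. The 6 endothelial genes had 5 higher and a median of 0.18, with 0.37 for the adhesion protein Pecam1, 0.31 for the VEGF receptor Kdr and 0.27 for the cadherin Cdh5. All 14 dissociation stress genes had a higher mean in the knockout, with a median of 0.36, and their list means were 10.05, 10.45 and 9.61 in wild type and 10.37, 10.95 and 9.85 in knockout cells. Among them the heat shock gene Hspa1b differed by 0.38 and the early response genes Nr4a1 and Zfp36 by 0.69 and 0.44. No gene of these 3 lists passed. The part of these markers in the values of the 10 genes was not tested.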

How the data were processed

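RNA of sorted basal cells was measured on 6 whole-transcript arrays, 1 per replicate. Each deposited value is the log2 expression of a probe set, which the authors made with RMA, per the submitters' processing notes, which also name Transcriptome Analysis Console 4.0. RMA subtracts background, equalizes the arrays and combines the probes of a set, which can shrink differences at low signal. Arrays have no read depth, and their number limits the precision. Scan batches were not used here.

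Of 41345 rows 23521 had 1 gene symbol, 1814 several and 16010 were unnamed here. The 1-symbol row of highest mean was kept for each of 22180 genes. The genotype comparison used lmFit and eBayes (trend option) of limma 3.58.1, run in R 4.3.3, as a two-sided test. The threshold was a Benjamini-Hochberg adjusted p of 0.05 over all genes. Correlations over arrays used exact two-sided permutation tests. The fit was tested on simulated data.

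The members and lists were chosen with earlier results of these data known. Text names every member, the 3 genes of smallest p and set defining genes of each of 17 lists, and the 5 nearest profiles. Krt5 had only a row shared with another gene and was not analysed here. Of 185 list entries 174 were measured. The labels call the arrays biological replicates but do not state which or how many mice went into each, so p-values measure the spread between these samples.

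The labels state no pairing of arrays, and the main fit used none. Same-numbered arrays were taken as pairs only for the differences printed and for the alternative with replicate as a block. The reason was that their deviations from the group means correlated across genes with r of 0.121, 0.25 and 0.127, each over 0.1. Replicate as a block, array weights, other normalization, filters and rows, the luminal mean as a covariate and leaving out arrays were tried as alternatives. Sequences are from RefSeq (GRCm38.p6). Figures were drawn with matplotlib 3.10.9.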

Additional observations from a re-analysis of the deposited data

How the results depend on the processing

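Across 15 alternative settings 0 of the 10 luminal progenitor genes and 0 of all genes passed an adjusted p of 0.05 in limma, and the lowest adjusted p of a member was 0.465. Without adjustment, at a p under 0.05, 357 genes were higher and 379 lower in the knockout, 0 of them members. With replicate as a block 0 genes passed, these numbers were 527 and 585, the median log2 fold change of the members was -0.03 as before, the smallest unadjusted p of a member was 0.101, and no call of a member changed. The direction of Ltf, Aldh1a3 and Lbp held under all settings run. Weighting the arrays turned the value of Kit to 0.11, of Lcn2 to 0.012 and of Plet1 to 0.064, and with quantile normalization that of Ehf turned to 0.042. With the general luminal mean as a covariate Kit turned to 0.11, Elf5 to -0.0096, Ehf to 0.27 and Lcn2 to 0.12. Leaving out each array in turn, the median of the members lay between -0.255 and 0.108, Kit between -0.41 and 0.25, Elf5 between -0.13 and 0.20, Cd14 between -0.47 and 0.14, Ehf between -0.35 and 0.24, Lcn2 between -0.16 and 0.15, Folr1 between -0.114 and 0.0795, and Plet1 between -0.15 and 0.20. The cause of these turns was not tested. Elf5 did not pass the filter on dim genes and has no value there, while the other 9 did. Permuting arrays within genotype only, added after seeing the data, moved the adjusted p of the correlation of Ltf with the luminal mean from 0.0278 to 0.208. A single relation at the smallest p of that test would have an adjusted p of 0.556, so this move decides nothing about the relation. With 3 arrays per genotype, a two-sided exact test that permutes the genotype labels of the arrays cannot give a p under 0.1.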
